A study of Mus musculus with 10 samples.

Results

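The hepatic transporters of organic anions, cations and drugs are described here in livers of tumour-bearing mice with and without cachexia. The 9 genes, Slco1a1, Slco1a4, Slco1b2, Slco2b1, Slc22a7, Abcc2, Abcc3, Abcc6 and Abcg2, were taken by symbol from the 43629 genes of the count table, and all 9 were among the 14143 genes that passed the filter on low counts. The livers came from male KL mice on an FVB background, which carry floxed Lkb1 on both chromosomes together with a Cre-activated oncogene. All mice of both groups had received adenovirus carrying Cre under the CMV promoter through the nose as adults, so every liver came from an animal with induced lung tumours, and livers of tumour-free mice were not analysed here. The authors classed 5 mice as non-cachectic (NCACS, mice 11 to 15, weight changes of -4, -8, -11, -3 and -14%) and 5 as having the cancer anorexia-cachexia syndrome (CACS, mice 16 to 20, weight changes of -32, -29, -33, -30 and -29%). Weight loss therefore defines the groups, and the labels give neither a batch nor the hour at which each liver was taken.

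Hepatocytes clear bile pigments, hormone conjugates, bile acids and drugs from portal blood by uptake carriers of the Slco (OATP) and Slc22 families on the sinusoidal membrane. Inside the cell these compounds are oxidised and conjugated, and ATP-driven pumps of the Abcc (MRP) and Abcg families then move the products into bile or back into blood. The pumps Abcc2 and Abcg2 sit on the canalicular membrane facing bile, whereas Abcc3 and Abcc6 sit on the basolateral membrane facing blood. The genes are well known for their control by nuclear receptors such as CAR and PXR, by HNF4A, and by the sex-specific pattern of growth hormone.

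The libraries held between 31945328 and 38306888 counts in NCACS livers and between 31459179 and 40746178 in CACS livers. The hepatocyte markers summed to between 65490 and 114900 CPM (counts scaled to a common library size) in NCACS and between 108400 and 132300 CPM in CACS, and the renal tubule markers reached at most 0.349 CPM. Albumin alone took 8.51, 8.05, 5.09, 8.08 and 4.49% of the counts in NCACS mice 11 to 15 and between 8.76 and 10.4% in CACS livers. NCACS mouse 15 stood apart in the clock output gene Dbp, at 1.27 CPM against 52.1 to 82.9 CPM in the other NCACS livers and 18.8 to 58.8 CPM in CACS livers. Levels below are CPM scaled by TMM unless another scale is named.

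None of the 9 transporters passed the threshold between CACS and NCACS, which was an edgeR quasi-likelihood p-value under 0.05 after Benjamini-Hochberg adjustment over all tested genes (0 of 9, where 538 of 14143 genes, 3.80%, did). DESeq2 called 0 of 9 (9.80% of all genes) and limma-voom 0 of 9 (3.60%). An unadjusted p-value under 0.05 was reached by 2 of 9 in edgeR (21.6% of all genes), by 3 in DESeq2 and by 2 in limma-voom. For DESeq2 and limma-voom this share over all genes is not given here, so their counts of 3 and 2 have no background to be read against. In no member were the groups free of overlap (0 of 9, against 7.07% of all genes). The log2 fold changes of CACS against NCACS were negative for 7 members and positive for 2 (49.4% of all genes were positive), with a median of -0.06, and the median size was 0.11 against 0.20 over all genes tested. For 6 of the 9, the 95% interval of the difference lay inside a 2-fold change in either direction, and for Slco1a4, Slc22a7 and Abcg2 it did not. A change in the number of cells of a type cannot be told apart from a change in RNA per cell in these bulk livers.

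**Figure D1:**
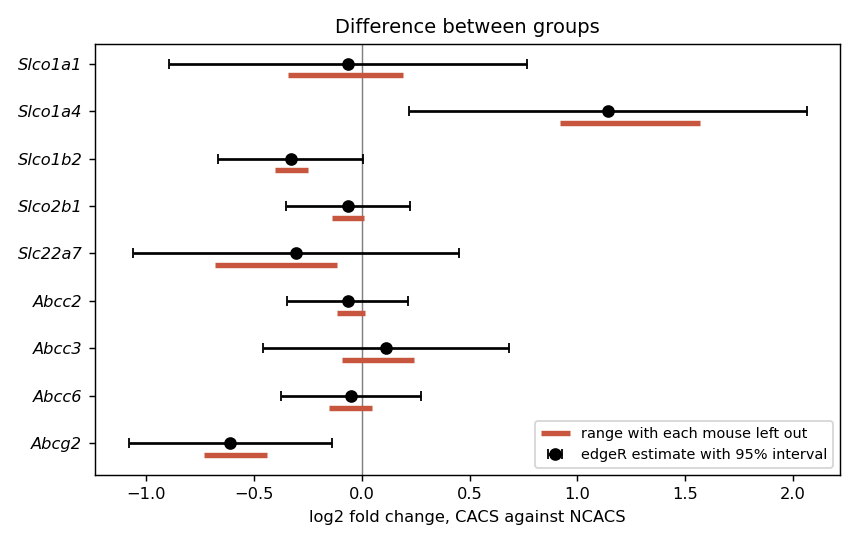
Log2 fold change of each transporter, CACS against NCACS (horizontal axis), with 1 point per gene and bars for the 95% interval from edgeR's quasi-likelihood fit over 5 livers per group. Thick lines under the points span the estimates from fits that leave out 1 mouse. The intervals of Slco1a4 (0.22 to 2.06) and Abcg2 (-1.08 to -0.14) lie to either side of 0, the other 7 cross it, and no adjusted p-value was under 0.05.

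The levels spanned a wide range. Per length, as RPKM (CPM divided by the exon length in kilobases), the mean level in NCACS livers was highest for Slco1b2 at 217 ± 39.5 RPKM (SD, n = 5). Abcc2 followed at 73.5 ± 10.7 RPKM (SD, n = 5), then Abcc3 at 53.4 ± 19.5, Slco1a1 at 47.3 ± 11.2 and Abcc6 at 46.3 ± 10.03 RPKM (SD, n = 5 each), and these last 3 differed by less than their spread. Slc22a7 (29.7 ± 8.23 RPKM) and Slco2b1 (27.4 ± 4.55 RPKM, SD, n = 5 each) also lay within each other's spread, as did Slco1a4 (12.03 ± 8.24 RPKM) and Abcg2 (11.1 ± 2.99 RPKM, SD, n = 5 each). In CACS livers the same 2 genes stood apart, with Slco1a4 at 26.5 ± 8.98 RPKM and Abcg2 at 7.26 ± 1.996 RPKM (SD, n = 5 each). Slco1b2 was again the highest in CACS at 172 ± 23.9 RPKM (SD, n = 5). Even the least abundant member in any liver, Slco1a4 in NCACS mouse 13, rested on 802 counts, so counting error was small beside the spread between mice.

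**Figure D2:**
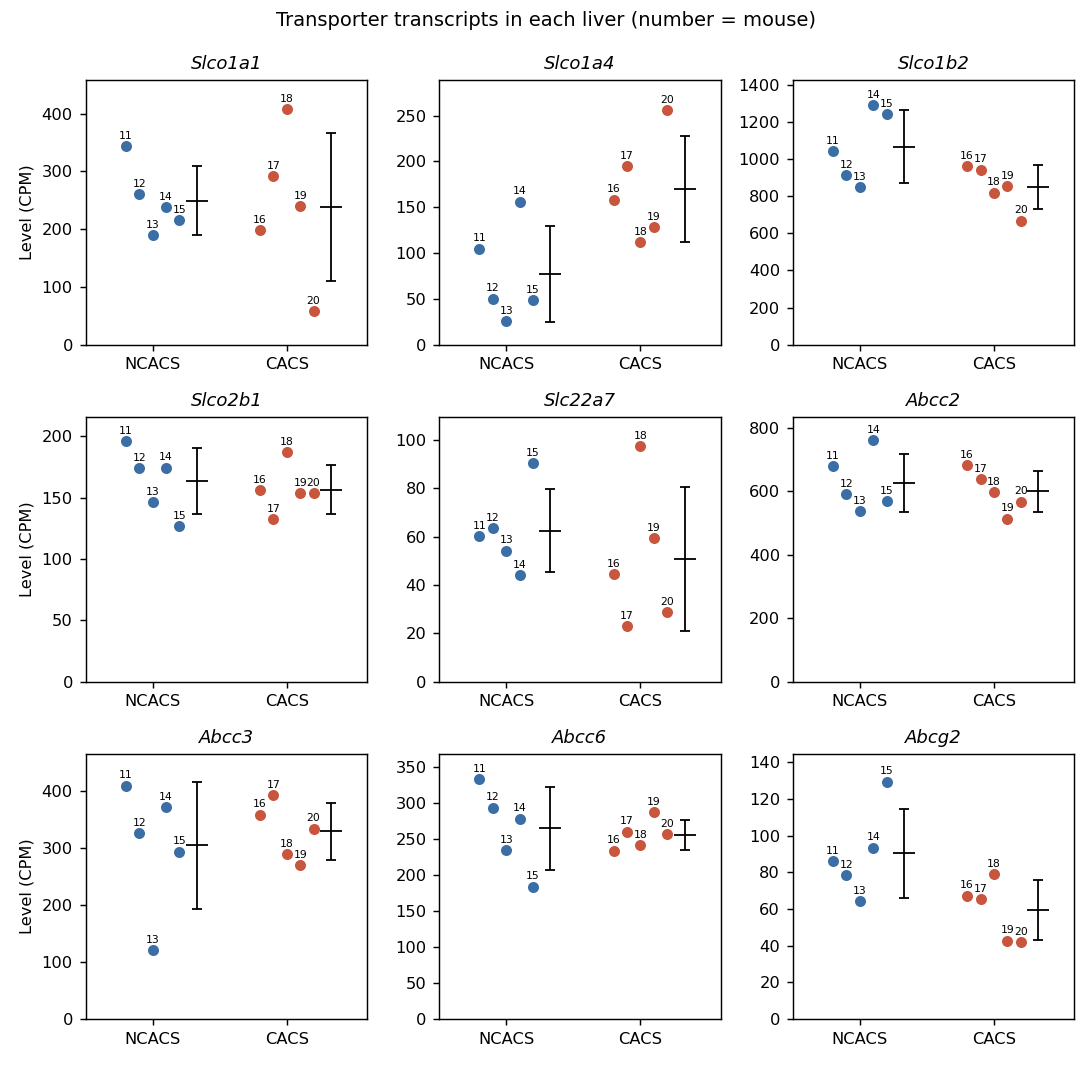
Level of each transporter in CPM in each liver, 1 panel per gene, with numbered points for the 5 NCACS and 5 CACS mice, and a dash and bar beside each group for its mean and SD. The groups overlap in every panel, and the largest ratios of the highest to the lowest liver within a group are those of Slco1a1 in CACS (57.7 to 408 CPM) and Slco1a4 in NCACS (25.9 to 156 CPM).

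The uptake carriers Slco1b2, Slco1a4 and Slco1a1 are neighbours on chromosome 6 of GRCm38. Slco1b2 (ENSMUSG00000030236) lies on the forward strand at chr6:141629518-141686646. Slco1a4 (ENSMUSG00000030237) lies 118793 bases further on, on the reverse strand at chr6:141805440-141856199, and Slco1a1 (ENSMUSG00000041698), also on the reverse strand, follows after 51082 bases at chr6:141907282-141946962. The paralogs are similar in sequence, and 33 of 3805 windows of 100 bases along the Slco1a1 transcript (0.867%) and 41 of 3724 along the Slco1a4 transcript (1.10%) occurred in another gene's transcript. The neighbouring paralogs Slco1a5 and Slco1a6 had at most 1 and 2 counts in any liver.

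The 250 bases before the RefSeq transcript start (GRCm38.p6) are shown for these 3 neighbours and for Abcg2, because Abcg2, Slco1a4 and Slco1b2 had the smallest p-values among the members and Slco1a1 is the neighbouring paralog of Slco1a4. Each is written along the gene's own strand, and capitals mark a match to a motif named below.
Slco1a1 (chr6:141946963-141947212, reverse strand): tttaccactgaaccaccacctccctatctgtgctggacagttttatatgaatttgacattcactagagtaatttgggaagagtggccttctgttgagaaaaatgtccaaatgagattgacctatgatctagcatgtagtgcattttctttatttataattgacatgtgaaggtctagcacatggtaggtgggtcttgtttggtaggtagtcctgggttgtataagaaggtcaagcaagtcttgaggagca
Slco1a4 (chr6:141856221-141856470, reverse strand): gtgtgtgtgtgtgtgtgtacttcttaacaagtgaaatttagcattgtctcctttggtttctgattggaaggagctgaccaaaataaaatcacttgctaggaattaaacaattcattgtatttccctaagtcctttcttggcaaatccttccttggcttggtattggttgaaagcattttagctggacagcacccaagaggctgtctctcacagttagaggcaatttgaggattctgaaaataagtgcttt
Slco1b2 (chr6:141629268-141629517, forward strand): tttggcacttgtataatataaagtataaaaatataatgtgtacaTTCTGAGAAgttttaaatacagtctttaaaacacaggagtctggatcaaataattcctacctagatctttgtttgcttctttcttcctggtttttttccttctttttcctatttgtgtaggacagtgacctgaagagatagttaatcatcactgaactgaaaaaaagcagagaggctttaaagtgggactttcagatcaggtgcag
Abcg2 (chr6:58640296-58640545, forward strand): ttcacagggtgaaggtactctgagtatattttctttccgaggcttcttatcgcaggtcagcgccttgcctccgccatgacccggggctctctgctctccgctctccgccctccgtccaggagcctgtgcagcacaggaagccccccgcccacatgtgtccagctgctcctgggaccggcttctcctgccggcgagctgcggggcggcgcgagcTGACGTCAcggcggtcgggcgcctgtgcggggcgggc

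Of the 9 transporters, 6 had an entry among the RefSeq promoters, with 10 start sites between them. Both strands of each 250-base window were searched for the cyclic AMP element TGACGTCA, the STAT element TTCNNNGAA, the NRF2 core TGACNNNGC and the AhR core GCGTG, and for longer consensus elements given here by name, which were the DR4 repeat of CAR and PXR and the DR1 repeat of HNF4A. The capitals in Slco1b2 are a STAT element that begins 206 bases before the start, and 7.02% of 32851 promoter windows held one. The capitals in Abcg2 are a cyclic AMP element that begins 37 bases before the most downstream of its 3 listed starts, and 1.55% of windows held one. The windows of Slco1a1 and Slco1a4 matched none of the 6 motifs. Elsewhere among the members, 1 Slco2b1 window held a STAT element and the Abcc2 window an NRF2 core (10.2% of windows). The AhR core was in 28.2% of windows and matched no window of the members. The HNF4A repeat was in 0.0335% of windows and the CAR and PXR repeat in 0.00913%, and neither matched a member window. At such low shares a match among 10 windows was improbable beforehand, so the lack of one says nothing about these receptors.

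Slco1a4 encodes OATP1A4, which takes up cardiac glycosides, steroid conjugates and bile acids at the sinusoidal membrane and is a textbook target of PXR. Its level was 105, 50.2, 25.9, 156 and 48.5 CPM in NCACS mice 11 to 15 and 158, 195, 112, 129 and 256 CPM in CACS mice 16 to 20. Of the NCACS livers, 4 lay below every CACS liver, and mouse 14, with the smallest weight loss of all, lay among the CACS values. The mean was 2.21 times higher in CACS (95% interval of the fitted fold 1.16 to 4.18), a log2 fold change of 1.14 (SE 0.42, edgeR unadjusted p = 0.0195 and adjusted p = 0.143). Leaving out 1 mouse at a time gave log2 fold changes from 0.92 without NCACS mouse 13 to 1.57 without NCACS mouse 14. The adjusted p-value stayed between 0.0630 and 0.282 over all alternatives, so this difference, the largest of the 9, did not pass in any of them.

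Slco1a1 encodes OATP1A1, a carrier of sulphated steroids and bile acids that is known to be higher in male than in female mouse liver. Its level was 344, 260.3, 190.3, 238 and 215 CPM in NCACS mice 11 to 15 and 198, 292, 408, 241 and 57.7 CPM in CACS mice 16 to 20. The CACS livers held both the highest value (mouse 18) and the lowest (mouse 20), and they spanned 7.06-fold against 1.81-fold in NCACS. The group means were near each other, with a log2 fold change of -0.06 (95% interval -0.89 to 0.77, edgeR adjusted p = 0.946). This value was 0.19 without CACS mouse 20 and -0.34 without CACS mouse 18.

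Read side by side, the order of the OATP1A paralogs was the other way round in CACS mouse 20, which had the highest Slco1a4 and the lowest Slco1a1 of all 10 livers. The per-length ratio of Slco1a4 to Slco1a1 was 0.251, 0.159, 0.112, 0.539 and 0.185 in NCACS mice 11 to 15 and 0.658, 0.549, 0.227, 0.440 and 3.65 in CACS mice 16 to 20. Slco1a4 was thus the more abundant paralog per length in 1 liver of 10.

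Slco1b2 encodes OATP1B2, the mouse carrier for bilirubin, statins and unconjugated bile acids. Its level was 1042, 915, 850.0, 1291 and 1241 CPM in NCACS mice 11 to 15 and 963, 944, 820, 855 and 668 CPM in CACS mice 16 to 20. Of the NCACS livers, 3 lay above every CACS liver. The log2 fold change was -0.33 (SE 0.15, 95% interval -0.67 to 0.01), with edgeR p-values of 0.0546 unadjusted and 0.241 adjusted. DESeq2 gave an unadjusted p of 0.0268 and an adjusted p of 0.148, and over the alternatives the adjusted p-value ranged from 0.148 to 0.424.

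Slco2b1 encodes OATP2B1, a carrier of steroid sulphates and drugs found in many organs, at chr7:99657804-99711340 on the reverse strand (ENSMUSG00000030737). Its level was 196, 174, 146, 174 and 127 CPM in NCACS mice 11 to 15 and 156, 132, 187, 154 and 153 CPM in CACS mice 16 to 20. The log2 fold change was -0.06 (95% interval -0.35 to 0.22, edgeR adjusted p = 0.827). Of its 5958 exon bases, 549 overlap exons of genes on the opposite strand, and the strand setting of the counting is not given in the sources used here.

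Slc22a7 encodes OAT2, which carries small organic anions, nucleobases and cyclic nucleotides, and lies at chr17:46432183-46438457 on the reverse strand (ENSMUSG00000067144). Its level was 60.2, 63.3, 54.2, 44.0 and 90.5 CPM in NCACS mice 11 to 15 and 44.4, 22.9, 97.5, 59.3 and 28.8 CPM in CACS mice 16 to 20. As with Slco1a1, the CACS livers held both extremes (mouse 18 the highest, mouse 17 the lowest) and spanned 4.25-fold against 2.05-fold in NCACS. The log2 fold change was -0.30 (SE 0.35, 95% interval -1.06 to 0.45, edgeR adjusted p = 0.656), and it was -0.68 without CACS mouse 18.

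Among the pumps, Abcg2 had the smallest p-value of all 9 members. It encodes BCRP, the canalicular half-transporter for urate, porphyrins, sulphate conjugates and many drugs, at chr6:58584523-58695676 on the forward strand (ENSMUSG00000029802). Its level was 86.1, 78.3, 64.4, 93.4 and 129 CPM in NCACS mice 11 to 15 and 67.2, 65.3, 78.9, 42.8 and 41.9 CPM in CACS mice 16 to 20. Of the NCACS livers 3 lay above every CACS liver, and 2 CACS livers lay below every NCACS liver. The fitted fold was 0.655 (95% interval 0.473 to 0.908), a log2 fold change of -0.61 (SE 0.22, edgeR unadjusted p = 0.0154 and adjusted p = 0.130). DESeq2 gave an adjusted p of 0.0587 and limma-voom 0.132. Without NCACS mouse 15, which had the highest level and also the low Dbp, the log2 fold change was -0.44 (edgeR adjusted p = 0.242).

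Abcc2 encodes MRP2, the canalicular pump for bilirubin glucuronides and glutathione conjugates, at chr19:43782192-43840740 on the forward strand (ENSMUSG00000025194). Its level was 679, 592, 537, 761 and 569 CPM in NCACS mice 11 to 15 and 682, 637, 597, 514 and 568 CPM in CACS mice 16 to 20. The groups overlapped over most of their range, and the log2 fold change was -0.07 (95% interval -0.35 to 0.22, edgeR adjusted p = 0.815).

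Abcc3 encodes MRP3, the basolateral pump that returns glucuronides to blood, at chr11:94343295-94392997 on the reverse strand (ENSMUSG00000020865). Its level was 409, 326, 121, 372 and 294 CPM in NCACS mice 11 to 15 and 358, 392, 289, 270.2 and 334 CPM in CACS mice 16 to 20. NCACS mouse 13 lay well below the other 9 livers. The log2 fold change was 0.11 (95% interval -0.46 to 0.68, edgeR adjusted p = 0.846), and it was -0.09 without that mouse.

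Abcc6 encodes MRP6, the basolateral pump whose loss causes ectopic mineralisation in pseudoxanthoma elasticum, at chr7:45967555-46030302 on the reverse strand (ENSMUSG00000030834). Its level was 333, 294, 235, 278 and 184 CPM in NCACS mice 11 to 15 and 234, 260.2, 241, 287 and 257 CPM in CACS mice 16 to 20. The CACS livers lay inside the NCACS range, with a coefficient of variation of 8.03% against 21.7%. The log2 fold change was -0.05 (95% interval -0.37 to 0.27, edgeR adjusted p = 0.886).

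Because weight loss defines the groups, the relation of each transporter to weight change was fitted with group as a term, so that it compares mice of the same group. The slope is in log2 CPM per percentage point of weight change, and a positive slope means a higher level in mice that lost less. This slope passed the edgeR threshold in none of the transporters (0 of 9, where 2 of 14143 genes, 0.0141%, did), and 3 of 9 had an unadjusted p under 0.05 (7.62% of all genes). Slopes were positive for 7 members and negative for 2 (51.6% of all genes were positive).

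Slco1a4 had the smallest of these p-values, with a slope of 0.173 (SE 0.0385, 95% interval 0.0884 to 0.258, edgeR unadjusted p = 0.000919 and adjusted p = 0.210). The NCACS mice 14 and 11, which lost the least, had the highest Slco1a4 of their group, and the CACS mice 20 and 17, which tied for the least loss in theirs, had the highest of all. The slope within groups and the difference between groups were thus of opposite sense, since CACS mice lost more weight and yet had the higher mean. Leaving out 1 mouse at a time gave slopes from 0.140 to 0.282 and adjusted p-values from 0.127 to 0.512, and limma-voom gave 0.183 (adjusted p = 0.209). Abcc6 had a slope of 0.0601 (SE 0.0174, edgeR unadjusted p = 0.00543 and adjusted p = 0.369), and NCACS mouse 15, which lost the most in its group, had its lowest level. Without that mouse the Abcc6 slope was 0.0399, and the range with 1 mouse left out was 0.0399 to 0.0775. Slc22a7 ran the other way, with a slope of -0.104 (SE 0.0463, edgeR unadjusted p = 0.0453 and adjusted p = 0.649), and its highest level in each group was in the mouse that lost the most. The slopes of the other 6 lay between -0.0413 (Abcg2) and 0.0678 (Abcc3). The Abcc3 slope was 0.0393 without NCACS mouse 13 and 0.145 without NCACS mouse 15, and the Slco1a4 slope of 0.282 was that without NCACS mouse 15.

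**Figure D3:**
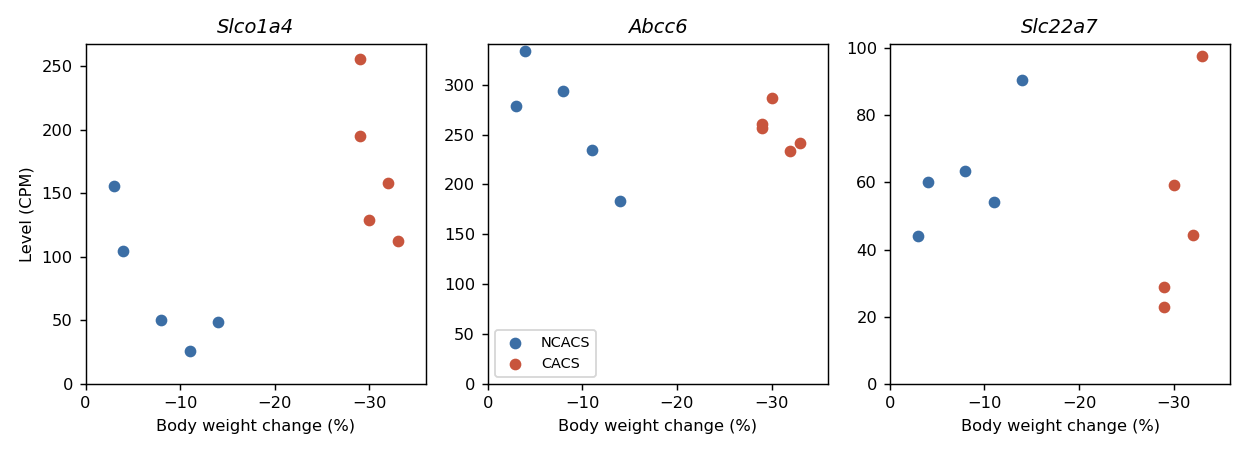
Level in CPM of Slco1a4, Abcc6 and Slc22a7 (vertical axes) against body weight change in percent (horizontal axes, greater loss to the right), 1 point per liver of 5 NCACS and 5 CACS mice. In each group the mice with the least loss have the highest Slco1a4 (156 CPM in NCACS, 256 CPM in CACS), and Slc22a7 is highest in the mouse with the greatest loss of each group (90.5 and 97.5 CPM).

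Other carriers of the same families were read as lists. Of 48 such genes 35 were tested, 0 passed the edgeR threshold higher in CACS (1.89% of all genes did) and 2 passed it lower (1.92%). An edgeR unadjusted p under 0.05 was reached by 8 of the 35 (21.6% of all genes), and the median log2 fold change was 0.01. DESeq2 called 5 of the 35 (9.80% of all genes) and limma-voom 2 (3.60%). In this and the following lists a call is that of edgeR unless another tool is named. The shares of all genes to set beside them are 3.80% called by edgeR, 9.80% by DESeq2 and 3.60% by limma-voom. An edgeR unadjusted p under 0.05 was reached by 21.6% of all genes, and 49.4% had a positive log2 fold change. Among the other Slco genes 0 of 2 tested were called, and the prostaglandin carrier Slco2a1 had the smaller p of the pair (log2 fold change -0.31, edgeR adjusted p = 0.242). Among the other Slc22 and Slc47 genes edgeR called 1 of 15, DESeq2 3 and limma-voom 2. Slc22a4, the ergothioneine carrier OCTN1, was 5.43, 4.66, 5.50, 5.51 and 5.90 CPM in NCACS mice 11 to 15 and 2.998, 3.02, 2.90, 2.68 and 4.27 CPM in CACS mice 16 to 20. The groups did not overlap, and Slc22a4 fell by 0.77 on the log2 scale (SE 0.15, edgeR adjusted p = 0.0257). With 1 mouse left out its adjusted p was 0.0131 to 0.0604, and the call was lost in 5 of 10 refits, those without NCACS mouse 11, 14 or 15 or CACS mouse 16 or 19. The others, named after their values were seen, were the organic anion transporter genes Slc22a28 and Slc22a29. Slc22a28 was 8.43, 10.7, 8.57, 10.8 and 7.63 CPM in NCACS mice 11 to 15 and 2.22, 7.06, 4.37, 1.72 and 1.66 CPM in CACS mice 16 to 20, again with no overlap. Its log2 fold change of -1.44 (SE 0.37) missed the threshold in edgeR (adjusted p = 0.0542) and passed it in DESeq2 (adjusted p = 0.00213) and limma-voom (adjusted p = 0.0253). Slc22a29 had a log2 fold change of -1.56 (SE 0.48, edgeR adjusted p = 0.0926) and passed in DESeq2 alone of the 3 tools (adjusted p = 0.0316).

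Of 5 bile salt carriers tested edgeR called 1, DESeq2 2 and limma-voom 0. Slc10a2, the apical sodium-dependent bile salt carrier, which in liver is known from bile duct cells, was 8.69, 17.1, 15.9, 6.32 and 6.08 CPM in NCACS mice 11 to 15 and 4.07, 3.70, 4.73, 4.99 and 3.21 CPM in CACS mice 16 to 20. Again the groups did not overlap, and Slc10a2 fell by 1.39 on the log2 scale (SE 0.30, edgeR adjusted p = 0.0327, limma-voom adjusted p = 0.0564). With 1 mouse left out the edgeR adjusted p was 0.0299 to 0.0746, and the call held only without NCACS mouse 14 or 15. The bile duct cell markers were called in 0 of 6 genes by any of the 3 tools (1 with an edgeR unadjusted p under 0.05), with a median log2 fold change of -0.35. They summed to 55.4 to 73.2 CPM in NCACS and 38.6 to 71.2 CPM in CACS, and their part in the Slc10a2 difference was not tested. Abcb11, the canalicular bile salt export pump, also named after its values were seen, was called by DESeq2 (adjusted p = 0.0364) and not by edgeR (log2 fold change -0.52, SE 0.17, adjusted p = 0.114), at 348 to 505 CPM in NCACS and 223 to 425 CPM in CACS. Of 13 other ABC pumps 0 were called by edgeR, DESeq2 or limma-voom (1 with an edgeR unadjusted p under 0.05), and the smallest p was that of the sterol half-transporter Abcg5 (log2 fold change 0.61, edgeR adjusted p = 0.124).

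The scaffold proteins that hold transporters at the membrane showed 0 calls in 6 genes tested by edgeR and 1 by DESeq2. It was radixin (Rdx), which anchors Abcc2 at the canaliculus and lay at -0.44 on the log2 scale (edgeR adjusted p = 0.0631, DESeq2 adjusted p = 0.00977). Of 17 known regulators DESeq2 called 5 and limma-voom 2. DESeq2 alone of the 3 tools called Bcl6 and Nr1i2 (PXR), which were named after the results were seen and whose directions are not given here. In edgeR the log2 fold changes of the 17 ran from -1.17 to 5.44. The log2 fold change was positive for 9 of the 17 and negative for 8, and 7 had an edgeR unadjusted p under 0.05. In edgeR 3 of the 17 rose (1.89% of all genes did) and 0 fell (1.92%). Hnf4a, the nuclear receptor that maintains hepatocyte identity, was 632 ± 42.5 CPM in NCACS and 892 ± 116 CPM in CACS (SD, n = 5 each), with no overlap. Its log2 fold change was 0.50 (SE 0.12, edgeR adjusted p = 0.0435), and with 1 mouse left out the adjusted p reached 0.0974 and the call held only without CACS mouse 18. Arnt, the dimer partner of AhR, was 39.0 ± 2.08 CPM in NCACS and 56.4 ± 6.45 CPM in CACS (SD, n = 5 each), also with no overlap (log2 fold change 0.53, SE 0.091, edgeR adjusted p = 0.0165), and its call held with any 1 mouse left out. Cux2, a female-biased repressor, was the other, at 0.291 to 0.653 CPM in NCACS and 30.6, 0.551, 17.3, 0.817 and 53.4 CPM in CACS mice 16 to 20 (edgeR adjusted p = 0.0298, limma-voom adjusted p = 0.320), and its edgeR call was lost without any 1 of the NCACS mice or without CACS mouse 16 or 20, with adjusted p-values up to 0.0657.

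Of 10 targets of CAR and PXR, 1 was called, and 4 had an edgeR unadjusted p under 0.05. The log2 fold change was positive for 4 and negative for 6, with a median of -0.36 and a maximum of 1.33. The called gene was Cyp2c55, at 11.8 to 32.3 CPM in NCACS and 1.83 to 7.11 CPM in CACS. It fell by 2.36 on the log2 scale (edgeR adjusted p = 0.0194). Slco1a4, itself a PXR target by textbook knowledge, had a positive log2 fold change in the same livers, as did 4 of these 10 targets. Of 10 NRF2 targets 0 were called by any of the 3 tools (1 with an edgeR unadjusted p under 0.05, median -0.35, smallest p Hmox1 with a log2 fold change of -0.50), and of 4 AhR targets edgeR called 0 (median 0.02). Among these Cyp1a2 had the smallest p, with a log2 fold change of -0.55 (edgeR adjusted p = 0.0774), and it passed in DESeq2 (adjusted p = 0.0108) and in edgeR without NCACS mouse 13 (adjusted p = 0.0329).

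Sex-biased liver genes were read as lists because Slco1a1 is male-biased by textbook knowledge, and a link between them and Slco1a1 was not tested. Of 12 male-biased genes 0 passed in edgeR (3.80% of all genes), 4 in DESeq2 (9.80%) and 1 in limma-voom (3.60%). An edgeR unadjusted p under 0.05 was reached by 4 of the 12 (21.6% of all genes). The log2 fold change was negative for 11 (49.4% of all genes were positive), with a median of -0.89. The smallest p was that of Elovl3, a fatty acid elongase (log2 fold change -2.67, edgeR adjusted p = 0.0580). Elovl3 passed in DESeq2 (adjusted p = 0.00832), in limma-voom (adjusted p = 0.0399), and in edgeR with no filter (adjusted p = 0.0491) or without CACS mouse 17 (adjusted p = 0.0208). Of 7 female-biased genes tested 1 rose (Cux2) and 1 fell in edgeR. The log2 fold change was negative for 5 of the 7, with a median of -0.77. Hao2, a peroxisomal hydroxyacid oxidase, fell by 4.03 on the log2 scale (edgeR adjusted p = 0.0323, limma-voom adjusted p = 0.131), and its call held only without NCACS mouse 13 or 15 or CACS mouse 18 (adjusted p up to 0.0746). Mouse 20, the CACS liver with the most Cux2, was also the one with the least Slco1a1, whereas mouse 18, with 17.3 CPM of Cux2, had the most Slco1a1.

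**Figure D4:**
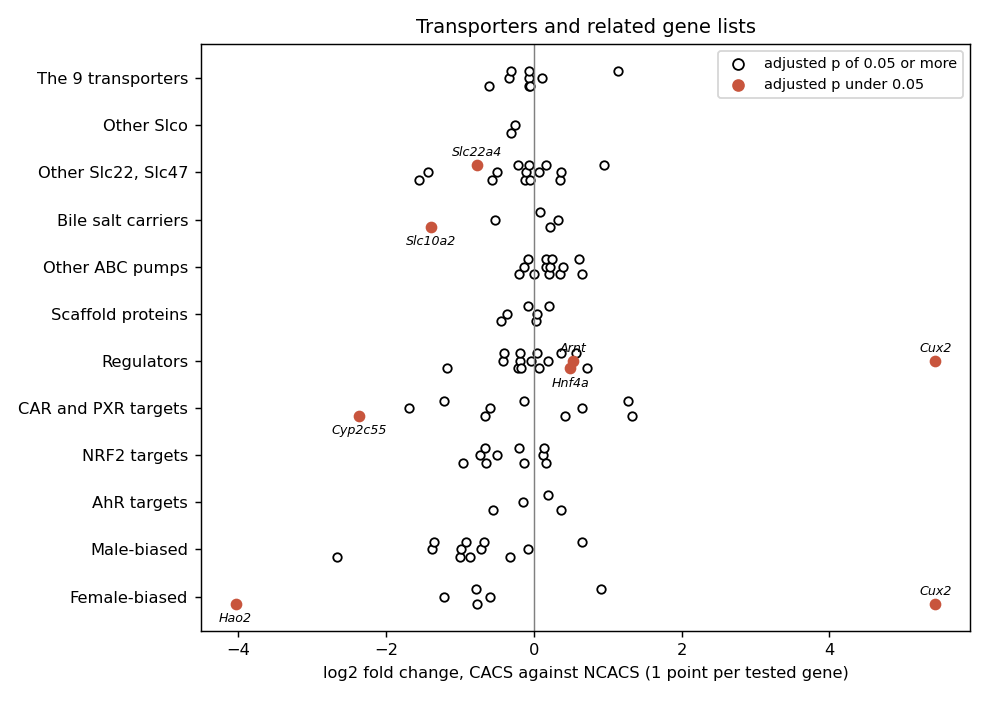
Log2 fold change of CACS against NCACS (horizontal axis) for every tested gene of the 9 transporters and 11 related lists, 1 point per gene, filled where the edgeR adjusted p-value was under 0.05. None of the 9 transporters is filled, and among the other carriers Slc22a4 (-0.77) and Slc10a2 (-1.39) are.

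Markers of liver cell types were read beside these results. Hepatocyte markers were called in 1 of 7 genes, higher (Hnf4a), by each of the 3 tools, with a median log2 fold change of 0.44. Kupffer cell markers were called in 1 of 6 (3.80% of all genes) and by DESeq2 in 3 (9.80%), and 4 had an edgeR unadjusted p under 0.05 (21.6%). All 6 had a negative log2 fold change, with a median of -0.85. The called gene Cd5l fell by 0.90 on the log2 scale (edgeR adjusted p = 0.0374). With 1 mouse left out its adjusted p reached 0.0862, and it passed only without NCACS mouse 14 or CACS mouse 19. The Kupffer cell markers summed to 149.9 to 251 CPM in NCACS and 87.3 to 175 CPM in CACS. EdgeR called none among 6 sinusoidal endothelial (median 0.22), 6 stellate (median -0.09), 4 other leukocyte (median -0.91), 3 erythroid (median 0.15) and 3 lung epithelial markers (median -0.31). An unadjusted p under 0.05 was reached by 1 stellate and 3 leukocyte markers, and DESeq2 called 1 of these, the neutrophil gene S100a8 (log2 fold change -1.79 and adjusted p = 0.111 in edgeR, adjusted p = 0.0233 in DESeq2). The leukocyte markers summed to 8.43 to 22.2 CPM in NCACS and 5.35 to 12.6 CPM in CACS, and the renal tubule markers were too low to test. The lung markers summed to at most 5.91 CPM in any liver. Of 7 pericentral genes 1 was called (2 by DESeq2), and 3 had an edgeR unadjusted p under 0.05. The log2 fold change was negative for 6 of them, with a median of -0.39. The called gene was the stem cell receptor Lgr5, which fell by 0.78 on the log2 scale (edgeR adjusted p = 0.0408). With 1 mouse left out its adjusted p reached 0.0842, and it passed only without CACS mouse 17. Of 7 periportal genes 0 were called by any of the 3 tools (1 with an edgeR unadjusted p under 0.05, median 0.13, smallest p Pck1). The part of cell composition in the transporter values was not tested.

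Variation among the 10 livers was last compared between genes after subtracting each group's mean, as a description only. Depth differed between livers, and the labels give neither a batch nor the hour of collection. The part of these in the correlations was not tested. Slco1a4 varied most like Abcc3 among the members (Pearson r = 0.80, Spearman rho = 0.81, and r = 0.71 without NCACS mouse 13). Next came Abcc2 (r = 0.74, and 0.66 without that mouse). Slco1b2 and Abcg2 had r = 0.71 (0.62 without that mouse), and the neighbours Slco1a1 and Slco1a4 r = -0.17 (-0.38 without it). Among genes averaging 5 CPM or more, the closest to Slco1a4 were Cep152 (r = 0.97) and Park7 (r = 0.95), to Slco1a1 Sox5 (r = 0.95) and Bdh1 (r = 0.94), and to Slco1b2 Yes1 (r = 0.98) and Ireb2 (r = 0.97). Slco2b1 was closest to Bri3 (r = 0.97) and Acot3 (r = 0.95), and Slc22a7 to Abhd17b and the pericentral enzyme Glul (r = 0.91 each). For the pumps these were Tek (r = 0.97) and Tfdp2 (r = 0.96) for Abcc2, Ces1g and Foxo1 (both with r = 0.95) for Abcc3, Klf13 (r = 0.98) and Tbc1d16 (r = 0.96) for Abcc6, and Etfdh and Fam107b (r = 0.97 each) for Abcg2. Each gene was picked as the closest of 9235 over 10 livers, so no test was made of these values.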

How the data were processed

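RNA of 5 NCACS and 5 CACS livers was made into stranded poly(A) libraries. The authors aligned the single-end reads to GRCm38 with STAR 2.4.1d, counted them per Ensembl gene with HTSeq 0.6.1 and deposited raw counts with no normalization. The annotation release and strand setting are not given in the sources used here. Groups, mouse numbers and weight changes came from the sample labels, and symbols from GENCODE M21, which lacked 1081 identifiers.

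In R 4.3.3, edgeR 4.0.16 (filterByExpr, TMM, quasi-likelihood test, Benjamini-Hochberg over 14143 genes, prior count of 2) gave the main results. DESeq2 1.42.0, limma 3.58.1, other scalings and filters, and leaving out each mouse were alternatives. Intervals are 95%. The fit was tested on simulated data. No 2 livers of the same group were duplicates (smallest chi-square per degree of freedom 46.1), and pairs across groups were not compared. The p-values measure the spread between these animals. Members and gene lists were chosen with earlier results of these data known. Named genes are all members, each other list's genes with an adjusted p under 0.05 (otherwise the smallest p), and the 2 genes most alike to each member. Some items are not reported here.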

Additional observations from a re-analysis of the deposited data

Results flagged for a closer look

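Of 18 tests of the most distant liver, 1 for each of the 9 transporters in each group, 1 exceeded Dixon's 95% critical value of 0.71 for 5 samples, and chance flags about 1 in 20. This was Abcc3 in NCACS mouse 13, at 121 CPM against 294 to 409 CPM in the other NCACS livers. Its gap to the nearest liver was 0.727 of the group's range on the log2 CPM scale. The same liver had the lowest Slco1a4 of all 10 livers, at 25.9 CPM.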

How the results depend on the processing

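The count of transporters past the threshold was 0 under all 18 alternatives for the group comparison and all 11 for weight change. The count over all genes was 538, and it was 1386 in DESeq2 and 34 at an adjusted p under 0.01, and ranged from 178 (without NCACS mouse 11) to 519 with 1 mouse left out; the cause was not tested. Leaving out Mup genes was added after seeing the data and gave 507. With 1 mouse left out, the log2 fold changes of Slco1a1 (-0.34 to 0.19), Slco2b1 (-0.14 to 0.012), Abcc2 (-0.12 to 0.014), Abcc3 (-0.090 to 0.24) and Abcc6 (-0.15 to 0.048) changed sign. Those of Slco1a4 (0.92 to 1.57), Slco1b2 (-0.40 to -0.25), Slc22a7 (-0.68 to -0.12) and Abcg2 (-0.73 to -0.44) did not. The slopes on weight change of Slco1a1 (-0.0227 to 0.0417, and -0.00485 in limma-voom), Slco1b2 (-0.0202 to 0.0426) and Abcg2 (-0.0643 to 0.00521) also changed sign. The call of Hnf4a was also lost with no filter and that of Lgr5 with raw library totals. No paired analysis was possible because each mouse number occurs in 1 group only. Counting error is small at 802 or more counts per liver, and 5 mice per group and their spread limit the comparisons.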
